A study of Drosophila melanogaster with 60 samples.

Results

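The measurements described here compare heads at 2 times of day in one genotype of Drosophila melanogaster. They are the 6 libraries labelled RNAi that were collected at Zeitgeber time (ZT, hours after lights on) 11 and 23, with 3 libraries at ZT11 and 3 at ZT23, out of 60 libraries in all. They were chosen by their labels alone. The flies of these 6 libraries carried Tim-gal4 and UAS-cbt RNAi, a construct against cabut (cbt), which encodes a zinc finger transcription factor. The same 2 times in the labelled control, conRNAi (Tim-gal4;UAS-Dcr2), gave 3 libraries each and are set beside them. Both genotypes carry Tim-gal4, which switches on UAS transgenes where timeless is expressed, and the label of the RNAi genotype lists no UAS-Dcr2. The RNA is that of whole heads, so cells outside the driver's reach are included, and fewer cells of a type cannot be told apart from less RNA per cell. Age, sex and light schedule are not given in the labels.

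In the fly clock, the CLOCK and CYCLE proteins activate transcription of period, timeless (tim), vrille (vri) and Par-domain protein 1 (Pdp1). The period and timeless proteins later repress CLOCK and CYCLE, vri represses the gene Clk and Pdp1 activates it, so that genes of the loop and their targets are transcribed at different times of day. In heads such rhythms are known from clock neurons, photoreceptors, glia and fat body, and their outputs include feeding, metabolism and visual genes.

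The values are 3′ RNA-seq read counts divided by a size factor of the library, and are called normalised reads below. Because whole reads could be recovered from them, the depth of each library is known. The ZT11 libraries of labelled RNAi heads held 4174411, 2830325 and 2574575 reads (replicates 1 to 3), and the ZT23 libraries 3716841, 349019 and 562369. Replicates 2 and 3 at ZT23 stand apart from the other libraries: 1 read is worth 7.49 and 4.42 normalised reads in them, against 0.700 in replicate 1, and 48.9% and 28.2% of the 7444 genes had fewer than 10 reads, against 0.524% in replicate 1. Their median correlation across genes with the other 17 labelled RNAi libraries was 0.901 and 0.922, against 0.944 to 0.971 for the other 16. Depth therefore moves with time of day here, and its part in the results was not tested. Every listed gene had at least 1 read in each of the 36 libraries. A gene without reads in even 1 of them, such as a shallow ZT23 library, is therefore absent. Genes low at ZT23 may be missing for this reason, which was not tested. Shares of all genes refer to the listed genes. No value in ZT23 replicates 2 and 3 can thus lie below 7.49 and 4.42. The lowest values of the ZT11 libraries were 1.02 to 1.84, and the effect of this floor on low genes was not tested. Whether replicates came from separate flies is not stated, so the p-values refer to the variation among these libraries, which may be technical only.

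The heads showed photoreceptor (10 of 10 listed markers measured), neuronal (17 of 17), glial (9 of 9), fat body (7 of 11) and muscle (14 of 16) transcripts. The summed marker levels of ZT11 and ZT23 heads overlapped for photoreceptor, neuronal, fat body, muscle, cuticle, haemocyte and sex-biased genes. Single members still passed the limma test described below. These were 3 of the 10 photoreceptor markers, all lower at ZT11 (0.443% of all genes), 1 cuticle gene in each direction and 1 sex-biased gene, lower at ZT11. The glial sum was 5229 to 5531 normalised reads in ZT11 heads, against 4956 to 5007 in ZT23 heads, with no overlap, and 0 of the 9 glial markers passed the test. Their part in the results below was not tested.

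The gene targeted by the construct, cbt, was checked before the other genes. Its 3 ZT11 libraries had 344, 423 and 302 normalised reads, against 247, 210 and 278 in the 3 ZT23 libraries. The times did not overlap, yet the log2 difference of 0.54 (SE 0.18) missed the threshold (limma adjusted p = 0.210). In conRNAi heads cbt had 373, 338 and 353 normalised reads at ZT11 and 313, 298 and 362 at ZT23. At ZT11 the labelled RNAi libraries thus overlapped the conRNAi libraries, and at ZT23 all 3 were below them. Lower cbt in labelled RNAi heads was not seen at both times, and the groups are called by their labels for this reason.

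Between ZT11 and ZT23, 74 of 7444 genes (0.994%) differed in labelled RNAi heads at a limma adjusted p under 0.05. Of these, 41 (0.551% of all genes) were higher at ZT11 and 33 (0.443%) lower. The clock genes vri and tim and the deubiquitinase gene Usp8 were among the genes higher at ZT11, and the feeding gene takeout (to), CG34134 and 3 opsin genes were among those lower. Of the 74 genes, 45 differed by more than 2-fold, 27 higher and 18 lower at ZT11. In 73 of the 74 the 3 ZT11 values lay outside the range of the 3 ZT23 values, the exception being l(2)k01209. The same held for 5.87% of all genes with ZT11 above and 6.93% with ZT11 below. The 74 genes are those with the smallest p-values, so this separation comes with the choice and is no further evidence. At an unadjusted p under 0.05 there were 957 genes.

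**Figure D1:**
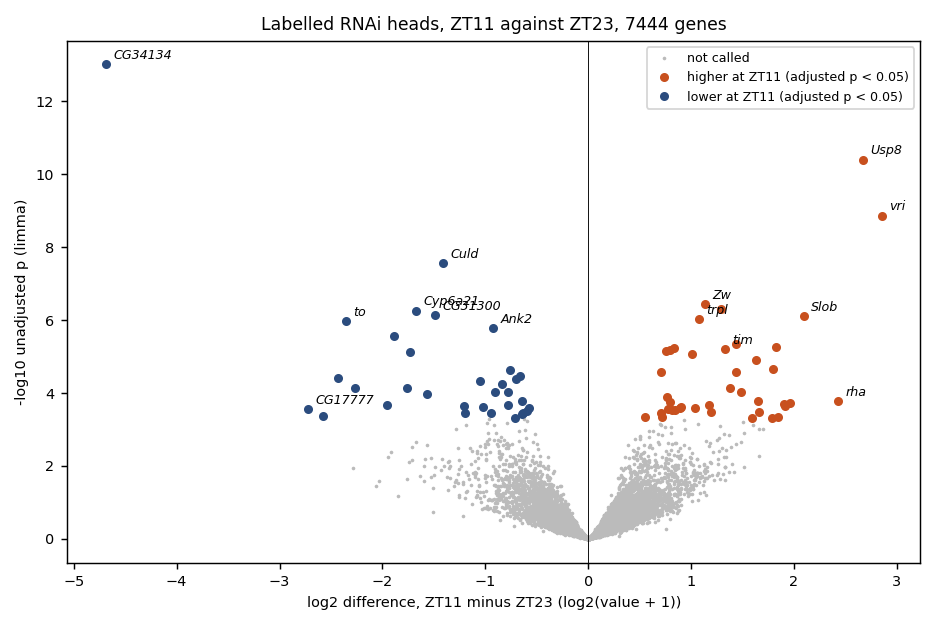
Each point is 1 of 7444 genes, with the log2 difference (ZT11 minus ZT23, log2 of value + 1) on the horizontal axis and −log10 of the unadjusted limma p on the vertical axis. Orange points are the 41 genes higher at ZT11 and blue points the 33 lower at ZT11; CG34134 lies farthest left at -4.69 and vri farthest right among the orange points at 2.85.

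The count depended on which libraries were included. Without the 2 ZT23 libraries under 1000000 reads, 6 genes were called, all of them among the 74: vri, Usp8, Slob, CG34134, CG31300 and Culd. In the gene lists described below, leaving out both shallow libraries left 1 core clock gene (vri), 2 clock output genes (Usp8 and Slob) and 0 genes of the other lists called. With any 1 of the 6 libraries left out, the count lay between 25 (without ZT11 replicate 2) and 256 (without ZT23 replicate 1). The fit with 256 calls had only the 2 shallow libraries at ZT23. Of the 74 genes, 23 kept their call without each single library in turn, and all 74 kept their direction in every alternative that gave them a value, which was 17 to 19 of the 19 for each gene. Genes described below kept their call without each single library unless a loss is stated.

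The core clock list (17 genes measured; per is not analysed here) held 2 genes called higher at ZT11 (0.551% of all genes) and 0 called lower (0.443%). Its median log2 difference was 0.20, against 0.01 for all genes. The repressor gene vri had 292, 394 and 196 normalised reads at ZT11, against 56.0, 44.9 and 22.1 at ZT23. Every ZT11 library was above every ZT23 library. The means were 294 ± 99.1 and 41.0 ± 17.3 (SD, n = 3 each), and the log2 difference was 2.85 (SE 0.29, limma adjusted p = 3.34e-06). The gene tim, whose protein pairs with that of period, had 378, 426 and 482 normalised reads at ZT11, against 188, 150 and 172 at ZT23. Its lowest ZT11 library had more reads than its highest ZT23 library. Its means of 429 ± 51.8 and 170 ± 19.03 (SD, n = 3 each) gave a log2 difference of 1.33 (SE 0.23, limma adjusted p = 0.00267). Both genes differed in the same direction in conRNAi heads, by 2.56 for vri (adjusted p = 7.72e-09) and 1.16 for tim (adjusted p = 3.11e-05).

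The other clock genes missed the threshold. The activator gene Clk had 19.7, 25.7 and 42.0 normalised reads at ZT11, against 51.8, 67.4 and 70.6 at ZT23. All 3 ZT11 values were below all 3 ZT23 values, with a log2 difference of -1.15 (SE 0.35, limma adjusted p = 0.147). The repressor gene cwo had 102, 102 and 78.9 normalised reads at ZT11, against 70.7, 29.9 and 48.6 at ZT23. Here ZT11 was above ZT23 without overlap, and the log2 difference was 0.98 (SE 0.30, limma adjusted p = 0.147). The log2 difference was 0.44 for Pdp1 (limma adjusted p = 0.3003), -0.51 for the clock neuropeptide gene Pdf (adjusted p = 0.347) and -0.75 for cyc, the partner of Clk (adjusted p = 0.407). The kinase genes dco, sgg, CkIIalpha and CkIIbeta had log2 differences of 0.22, 0.06, 0.20 and -0.10, with limma adjusted p of 0.684 or more.

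The blue-light photoreceptor gene cry had 240, 248 and 222 normalised reads at ZT11 and 213, 270 and 177 at ZT23 in labelled RNAi heads, so the times overlapped (log2 difference 0.13, limma adjusted p = 0.807). In conRNAi heads it had 204, 243 and 193 at ZT11, against 141, 113 and 119 at ZT23, without overlap (log2 difference 0.77, limma adjusted p = 0.0117). The difference between genotypes was -0.65 (unadjusted p = 0.012, limma adjusted p = 0.547), so it was not called. In the annotation cry overlaps vib, and without stated strand their reads cannot be told apart.

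**Figure D2:**
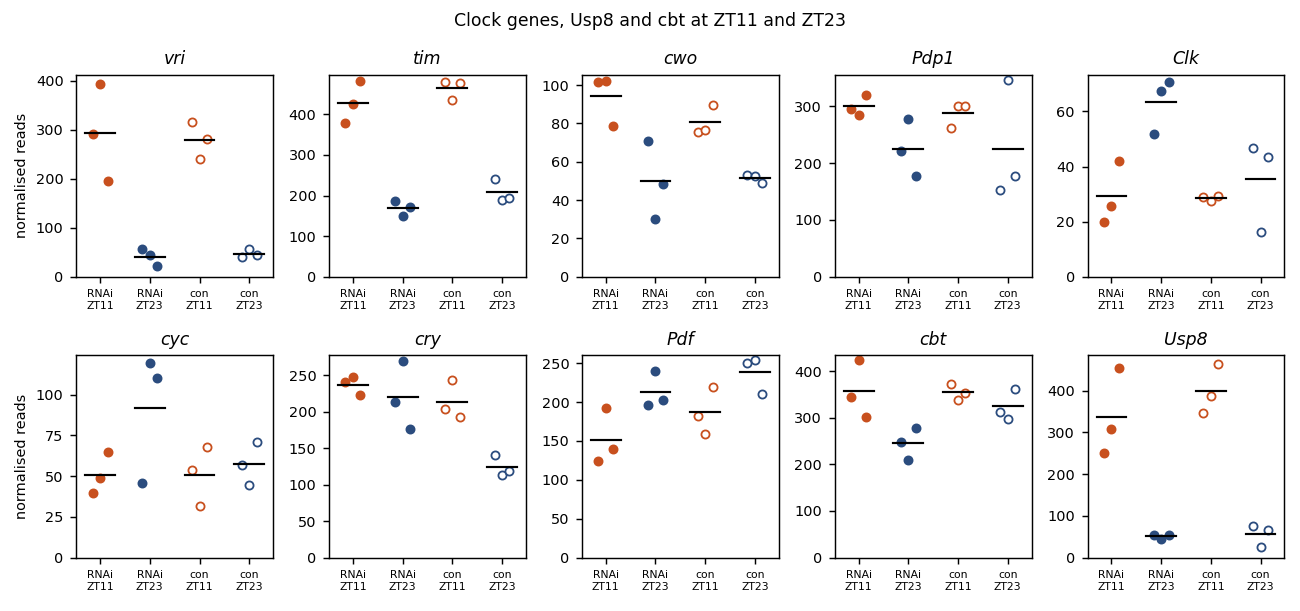
Normalised reads (vertical axes) of 8 clock genes, cbt and Usp8 in every ZT11 and ZT23 library, with filled points for labelled RNAi heads, open points for conRNAi heads (con), orange for ZT11, blue for ZT23 and a bar at the mean of 3 libraries. The filled orange points of vri, tim and Usp8 lie above all their filled blue points; those of cry overlap theirs.

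The clock output list held 14 measured genes, 3 of them higher (0.551% of all genes) and 4 lower (0.443%) at ZT11. This list was chosen from genes already known as clock outputs and with earlier results of these data in view. Usp8, which encodes a ubiquitin-specific protease, had 251, 308 and 454 normalised reads at ZT11, against 53.9, 44.9 and 53.0 at ZT23. The ranges lay far apart, with means of 338 ± 104 and 50.6 ± 4.94 (SD, n = 3 each). The log2 difference was 2.67 (SE 0.23, limma adjusted p = 1.46e-07). Slob, which encodes a protein that binds the Slowpoke potassium channel, had 194, 248 and 212 normalised reads at ZT11, against 69.3, 22.5 and 79.5 at ZT23 (log2 difference 2.09, SE 0.31, limma adjusted p = 0.00064). Its ZT11 libraries were all above the ZT23 libraries, of which replicate 2 held 3 reads. The third, trpl, which encodes a cation channel of phototransduction in photoreceptors, had 1929, 2128 and 2958 normalised reads at ZT11, against 1162, 891 and 1245 at ZT23. Again no ZT23 value reached a ZT11 value (log2 difference 1.08, SE 0.16, limma adjusted p = 0.000706).

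Genes of the same list that were lower at ZT11 were to, Cyp6a21, Cyp4d21 and CG10553. The gene to, which encodes a secreted protein linked to feeding, had 117, 325 and 525 normalised reads at ZT11, against 1527, 1235 and 1426 at ZT23. All 3 ZT11 values were below all 3 ZT23 values, and the log2 difference was -2.35 (SE 0.36, limma adjusted p = 0.00072). Cyp6a21, a cytochrome P450 gene, had 77.5, 56.9 and 79.9 normalised reads at ZT11, against 188, 285 and 221 at ZT23, a non-overlapping difference of -1.67 (SE 0.24, limma adjusted p = 0.000581). Cyp4d21, a P450 gene expressed under the control of the sex-determination pathway, had 24.1, 97.3 and 111 normalised reads at ZT11, against 234, 232 and 194 at ZT23 (log2 difference -1.76, limma adjusted p = 0.0161). Its call was lost without ZT11 replicate 1 (-1.07, adjusted p = 0.0654). CG10553 differed by -1.06 (limma adjusted p = 0.0119) and lost its call without ZT11 replicate 2 (-0.98, adjusted p = 0.0895). Over the 54 measured P450 genes the count was 2 lower (0.443% of all genes) and 0 higher (0.551%), with a median of -0.10 that was 0.022 without both shallow ZT23 libraries.

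The largest difference in either direction was that of CG34134, to which no role is given here. It had 33.6, 27.5 and 34.8 normalised reads in ZT11 heads, against 1039, 532 and 1095 in ZT23 heads. The ZT23 mean of 889 was 27.8 times the ZT11 mean of 32.0, and the log2 difference was -4.69 (SE 0.30, limma adjusted p = 7.17e-10). CG31300 had 51.2, 74.4 and 49.2 normalised reads at ZT11, against 169, 180 and 141 at ZT23 (log2 difference -1.49, SE 0.22, adjusted p = 0.00064). Culd, which encodes a CUB and LDLa domain protein, had 246, 258 and 259 at ZT11, against 659, 517 and 910 at ZT23 (log2 difference -1.41, SE 0.17, adjusted p = 5.1e-05). Both genes separated the times completely. Ank2, which encodes a neuronal ankyrin, had 862, 863 and 640 normalised reads at ZT11, against 1505, 1520 and 1417 at ZT23 (log2 difference -0.92, SE 0.14, limma adjusted p = 0.00105).

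The 12 largest decreases at ZT11 also held CG17777 (-2.72), CG17127 (-2.57), CG13931 (-2.43), geko (-2.27), Amy-p (-1.95), CG11891 (-1.89), CG10513 (-1.73) and Acsx3 (-1.56). Of these, CG11891 and CG10513 kept their call without each single library, and the other 6 lost theirs without at least 1. For CG17127 the ZT11 libraries had 3.65, 2.75 and 8.20 normalised reads, against 16.8, 37.4 and 48.6 at ZT23, which in ZT23 replicate 2 stood for 5 reads. Its adjusted p was 0.0461, and its call was lost in all but 1 of the 6 fits that left out a single library.

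Of the 24 genes on the phototransduction list, 3 were called lower at ZT11 (0.443% of all genes) and 0 higher (0.551%). All 3 are opsin genes, while the opsin genes ninaE and Rh6, described below, did not pass. Rh3 and Rh4 encode the ultraviolet opsins of R7 photoreceptors and Rh5 the blue opsin of R8. Rh3 had 1935, 1804 and 1756 normalised reads at ZT11, against 3018, 2808 and 2879 at ZT23. Rh4 had 1214, 1227 and 1356 normalised reads at ZT11, against 2232, 1909 and 2287 at ZT23. Rh5 had 306, 310 and 367 normalised reads at ZT11, against 546, 449 and 543 at ZT23. All 3 opsins had lower values in every ZT11 library than in any ZT23 library. The log2 differences were -0.66 for Rh3 (SE 0.13, limma adjusted p = 0.00963), -0.76 for Rh4 (SE 0.14, adjusted p = 0.00736) and -0.64 for Rh5 (SE 0.14, adjusted p = 0.0297).

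These opsin calls sat close to the threshold when single libraries were left out. Rh4 lost its call without ZT11 replicate 2 (adjusted p = 0.0507), and Rh3 without ZT11 replicate 2 (0.0509) or replicate 3 (0.0526). Rh5 lost its call without ZT11 replicate 1 (0.132), ZT11 replicate 2 (0.130) or ZT23 replicate 3 (0.0942). The annotated spans of Rh4 and sina overlap, and the strand of counting is not given in the sources used here.

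The other 21 of the 24 genes on the phototransduction list did not pass; trpl, described above as higher at ZT11, is not on this list. The main opsin gene ninaE had a log2 difference of 0.05 (limma adjusted p = 0.917), the R8 opsin gene Rh6 0.05 (adjusted p = 0.924), the arrestin gene Arr2 -0.01 (adjusted p = 0.993) and the channel gene trp 0.09 (adjusted p = 0.806). The myosin kinase gene ninaC had a value of 0.51 (limma adjusted p = 0.102). The list median was 0.05, close to that of all genes. Of 10 genes of retinoid and eye pigment metabolism 0 passed, with the retinoid-binding protein gene pinta nearest at -0.97 (limma adjusted p = 0.0506).

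**Figure D3:**
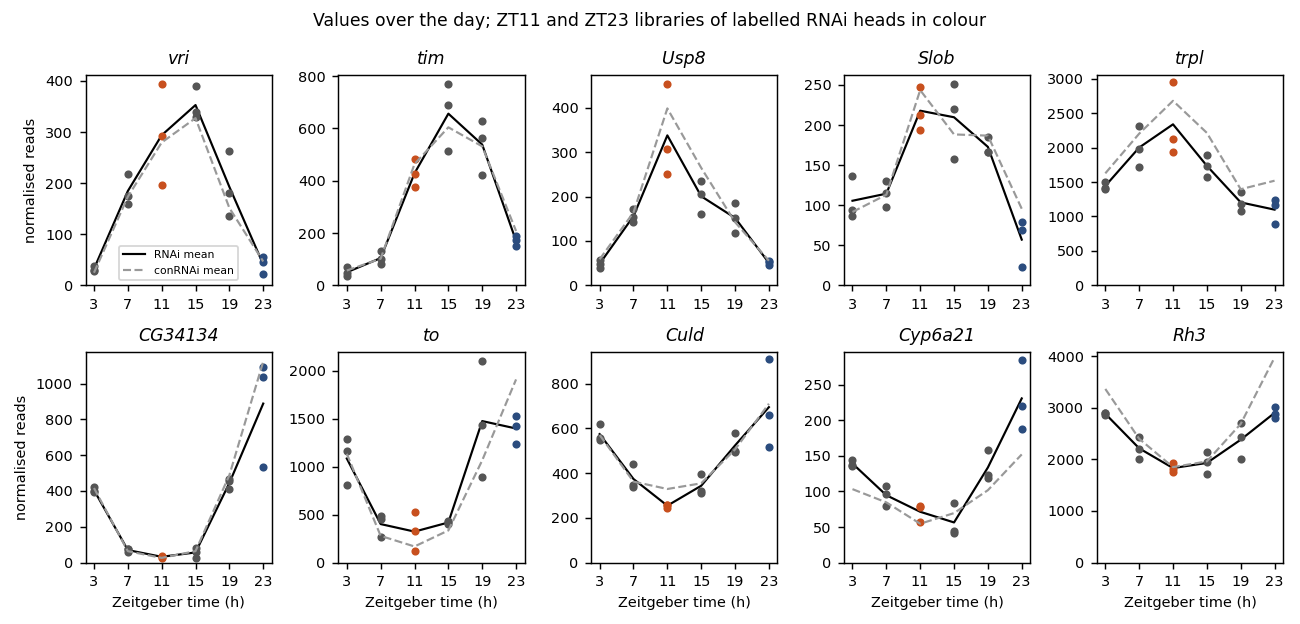
Normalised reads of 10 genes in labelled RNAi heads at 6 times (ZT in hours), with points for libraries (orange ZT11, blue ZT23, grey others), a black line through the labelled RNAi means and a dashed grey line through the conRNAi means. Usp8 and trpl have their highest labelled RNAi mean at ZT11, and vri and tim at ZT15; CG34134, Culd, Cyp6a21 and Rh3 have it at ZT23.

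ZT11 and ZT23 were near the extremes of the course for most called genes, which were chosen on this contrast. Of the 41 genes higher at ZT11, 30 had their highest mean over 6 times at ZT11, 6 at ZT15, 4 at ZT3 and 1 at ZT7, and 30 had their lowest at ZT23. Of the 33 lower genes, 27 had their highest mean at ZT23, 5 at ZT19 and 1 at ZT3, and 22 had their lowest at ZT11. The clock gene vri averaged 32.3, 184, 294, 353, 193 and 41.0 normalised reads over ZT3, ZT7, ZT11, ZT15, ZT19 and ZT23. For tim the averages over the same times were 50.04, 104, 429, 657, 538 and 170. CG34134 averaged 405, 69.8, 32.0, 56.5, 445 and 889. In the authors' deposited table the q-value of the rhythm test in labelled RNAi heads was under 0.05 for 70 of the 74 called genes and for 821 of all 7444, from the same libraries.

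Genes of the pentose phosphate pathway, which makes NADPH and ribose from glucose 6-phosphate, included 2 of 7 measured genes called higher at ZT11 (0.551% of all genes) and 0 called lower. Zw, which encodes glucose-6-phosphate dehydrogenase, the entry enzyme, had 356, 364 and 457 normalised reads at ZT11, against 197, 187 and 150 at ZT23. No ZT23 library reached the lowest ZT11 library, and the log2 difference was 1.14 (SE 0.16, limma adjusted p = 0.000551). The transketolase gene CG8036 had 1996, 1785 and 1739 normalised reads at ZT11, against 1050, 1228 and 918 at ZT23. This gene, too, had no overlap (log2 difference 0.80, SE 0.14, limma adjusted p = 0.00267). The other 5 members missed the threshold, Pgls at 0.58 (adjusted p = 0.193), Taldo at 0.45 (adjusted p = 0.161) and Pgd, Rpi and Rpe with an adjusted p of 0.5002 or more. All 7 had a positive difference, with a median of 0.45. In the annotation Zw overlaps et, and CG8036 overlaps p. Without both shallow ZT23 libraries the log2 differences were 0.98 for Zw (adjusted p = 0.106) and 0.81 for CG8036 (adjusted p = 0.140).

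Glycolysis genes had 1 of 12 called higher (0.551% of all genes) and 0 lower (0.443%). Their median was 0.33, against 0.01 for all genes. Pgk, which encodes phosphoglycerate kinase, had 1314, 1256 and 1126 normalised reads at ZT11, against 925, 734 and 874 at ZT23 (log2 difference 0.55, SE 0.13, limma adjusted p = 0.0479). All ZT11 values exceeded all ZT23 values, but the call was lost in all but 1 of the 6 fits that left out a single library, and by edgeR (adjusted p = 0.0878). Gapdh2 (0.50, adjusted p = 0.111), Pgi (0.44, adjusted p = 0.160) and Tpi (0.54, adjusted p = 0.198) missed the threshold. Pgk overlaps Cwc25 and Bacc in the annotation.

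The lipid synthesis list held 1 of 10 called higher (0.551% of all genes) and 0 lower (0.443%), with a median of 0.27. FASN1, which encodes the fatty acid synthase, had 2270, 1919 and 1481 normalised reads at ZT11, against 1286, 1213 and 839 at ZT23. The ranges were separate, with a log2 difference of 0.77 (SE 0.17, limma adjusted p = 0.0238). The call was lost without ZT11 replicate 1 (0.62, adjusted p = 0.164), ZT11 replicate 2 (0.74, adjusted p = 0.105) or ZT23 replicate 3 (0.58, adjusted p = 0.120). The desaturase gene Desat1 missed the threshold at 0.72 (limma adjusted p = 0.100). Inos, which encodes an inositol-3-phosphate synthase, had 1290, 1405 and 1440 normalised reads at ZT11, against 886, 898 and 676 at ZT23 (log2 difference 0.76, SE 0.13, limma adjusted p = 0.00271).

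Sugar digestion genes went in both directions. Of 7 measured amylase and maltase genes, 1 was higher (0.551% of all genes) and 1 lower (0.443%) at ZT11. The glucosidase gene tobi, a target of insulin and adipokinetic hormone signalling that is also on the sugar sensing list, had 268, 272 and 128 normalised reads at ZT11, against 76.3, 82.4 and 26.5 at ZT23 (log2 difference 1.91, SE 0.44, limma adjusted p = 0.0345). All 3 ZT11 values lay above the ZT23 values. The gene rha, at 2.43 (SE 0.54, adjusted p = 0.0297), overlaps tobi in the annotation, so their reads cannot be told apart without strand. Both lost their call without ZT11 replicate 1, ZT11 replicate 2 or ZT23 replicate 3, with adjusted p of 0.105 to 0.179, and tobi also missed the threshold by DESeq2 (adjusted p = 0.05).

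Amy-p, which encodes an alpha-amylase, had 49.7, 128 and 109 normalised reads at ZT11, against 216, 861 and 221 at ZT23 (log2 difference -1.95, SE 0.44, limma adjusted p = 0.0330). The ZT23 libraries were all higher, and replicate 2 was the highest. Without that library the difference was -1.30 (adjusted p = 0.136), and the call was also lost without each ZT11 library. Amy-p has a near-identical copy, Amy-d, between which counting may have split reads, and Amy-d missed the threshold at -0.97 (limma adjusted p = 0.135).

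Of 12 genes of insulin and adipokinetic hormone signalling, 1 was called lower (0.443% of all genes) and 0 higher (0.551%). ImpL2, whose secreted protein binds insulin-like peptides, had 202, 174 and 166 normalised reads at ZT11, against 255, 337 and 344 at ZT23 (log2 difference -0.78, SE 0.16, limma adjusted p = 0.0193). No ZT11 value reached the ZT23 range. The call was lost without ZT11 replicate 2 or 3 or without ZT23 replicate 2 or 3 (adjusted p of 0.0622 to 0.102). The receptor gene InR (-0.69, adjusted p = 0.353) and the translation repressor gene Thor (-0.38, adjusted p = 0.374) missed the threshold. CG43367, next to ImpL2 on the chromosome, differed by -0.63 (limma adjusted p = 0.0407), a call lost in all but 1 of the 6 fits that left out a single library.

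**Figure D4:**
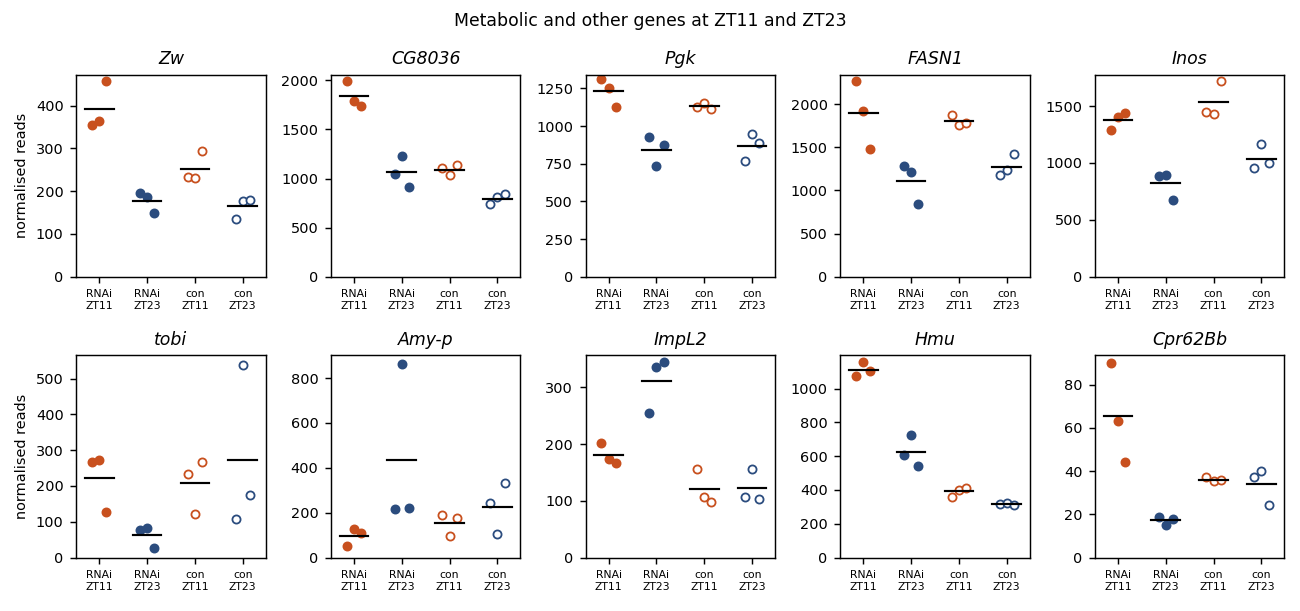
Normalised reads of metabolic and other genes in every ZT11 and ZT23 library, drawn as in the plot of clock genes. In labelled RNAi heads (filled points) ZT11 lies above ZT23 for Zw, CG8036, Pgk, FASN1, Inos, tobi, Hmu and Cpr62Bb and below it for Amy-p and ImpL2; in conRNAi heads (open points) the times overlap for tobi, Amy-p, ImpL2 and Cpr62Bb.

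Among the other increases, gol, which encodes a RING finger protein, had 224, 259 and 209 normalised reads at ZT11, against 113, 89.8 and 79.5 at ZT23 (log2 difference 1.29, SE 0.19, limma adjusted p = 0.000581). The aquaporin gene Drip had 226, 259 and 182 normalised reads at ZT11, against 126, 105 and 97.1 at ZT23 (log2 difference 1.01, SE 0.18, limma adjusted p = 0.00307). The values of ZT11 and ZT23 did not overlap for either gene. Hmu (0.84, limma adjusted p = 0.00267) overlaps CG3348 (0.84, adjusted p = 0.037) in the annotation, so this pair may share reads. The carbonic anhydrase gene CAH9 (1.63, limma adjusted p = 0.00414) lies next to Jhbp11 (1.44, adjusted p = 0.00781) without an annotated overlap. Whether CAH9 and Jhbp11 share reads was not tested. CG3348 lost its call in all but 1 of the 6 fits that left out a single library and Jhbp11 in 3 of the 6, while Hmu and CAH9 kept theirs without each.

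The 41 increases ranged from 0.55 (Pgk) to 2.85 (vri) and the 33 decreases from -0.57 (CG4716, a call lost in 4 of the 6 fits that left out a single library) to -4.69 (CG34134) on the log2 scale. The glypican gene dlp had 63.6, 70.7 and 79.9 normalised reads at ZT11, against 31.5, 29.9 and 17.7 at ZT23 (log2 difference 1.44, SE 0.24, limma adjusted p = 0.00239). CG17108 had 12750, 17128 and 18506 normalised reads at ZT11, against 30764, 24235 and 38758 at ZT23 (log2 difference -0.95, SE 0.23, limma adjusted p = 0.0407). Neither gene had overlapping times, and CG17108 lost its call without any 1 of the ZT11 libraries or ZT23 replicate 3. Among smaller decreases, kst, which encodes a heavy spectrin chain, differed by -1.02 (limma adjusted p = 0.0349) and Ide, which encodes the insulin-degrading enzyme, by -0.65 (adjusted p = 0.0407). Both of these calls were lost in all but 1 of the 6 fits that left out a single library.

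Several of the largest increases rested on very few reads. CG9667, Orct2, CG13082, mol, Ekar and crok had a single read in ZT23 replicate 2, which the scaling lists as 7.49 normalised reads. The 12 largest increases include these 6, at log2 differences of 1.96, 1.90, 1.84, 1.80, 1.79 and 1.66. The DUOX maturation gene mol had 37.3, 35.8 and 32.8 normalised reads at ZT11, against 12.6, 7.49 and 8.83 at ZT23 (limma adjusted p = 0.00697). It kept its call without each single library but not by edgeR (adjusted p = 0.0522), and the other 5 lost theirs without at least 1 library. In edgeR on the recovered reads the log2 difference was 0.9987 for CG9667, 1.15 for Orct2 and 0.92 for Ekar, with adjusted p of 0.295 to 0.498. Of all 74 called genes, 23 had fewer than 10 reads in ZT23 replicate 2, as did 3642 of all 7444. The other 6 of the 12 largest increases also had few reads in ZT23 replicates 2 and 3. There vri had 6 and 5 reads, Usp8 6 and 12, rha 5 and 1, and Slob 3 and 18. For tobi the counts were 11 and 6 and for Cpr62Bb 2 and 4. Outside these 12, dlp had 4 in each.

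Stress and immune genes had no member called by limma across the 18 labelled RNAi libraries. Of 22 antimicrobial and recognition genes 0 passed, and the median was -0.32. In conRNAi heads 3 of the 22 were called higher at ZT11 (0.833% of all genes) and 0 lower (1.06%), with a median of 0.45, and the difference between genotypes was called for 0 of them. The antimicrobial peptide gene Mtk had 98.0, 983 and 693 normalised reads at ZT11, against 1566, 1565 and 3210 at ZT23 (log2 difference -2.29, SE 0.83, limma adjusted p = 0.238). The times did not overlap, and replicate 1 at ZT11 was the lowest of the 6 libraries. Of 13 heat shock and co-chaperone genes 0 passed (median -0.29), as did 0 of 11 genes of protein folding in the endoplasmic reticulum (median -0.12) and 0 of 3 Turandot genes. With all 36 libraries in the fit, 1 antimicrobial or recognition gene, 1 heat shock or co-chaperone gene and 1 gene of folding in the endoplasmic reticulum were called lower in labelled RNAi heads. That fit called 159 of all 7444 genes in either direction, more than the main fit. Of 85 cytoplasmic ribosomal protein genes 0 passed, and 1 had an unadjusted limma p under 0.05. Their differences were 78 positive and 7 negative, against 3802 and 3642 over all genes. The median was 0.15, against 0.01 for all genes, and it was 0.018 without ZT11 replicate 1 and 0.27 without ZT11 replicate 2. Of 33 proteasome genes 0 passed (median -0.03). The sleep regulator gene wake (1.13, limma adjusted p = 0.244) and the dopamine transporter gene DAT (1.501, adjusted p = 0.0573) missed the threshold.

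In all, 22 lists had 0 genes called by limma, among them also the feeding neuropeptide, gluconeogenesis, lipolysis, odorant binding, mitochondrially encoded, transferase, activity-regulated and construct lists. Their 358 genes included 42 at an unadjusted limma p under 0.05, against 957 of all 7444 genes (12.9%), so these lists held no excess of such genes. Of the 358, edgeR called 0 and DESeq2 2. Of 17 cuticle protein genes, 1 was higher (0.551% of all genes) and 1 lower (0.443%). Cpr62Bb had 89.9, 63.4 and 44.1 normalised reads at ZT11, against 18.9, 14.97 and 17.7 at ZT23 (log2 difference 1.82, SE 0.31, limma adjusted p = 0.00266), and Cpr67B differed by -0.90 (adjusted p = 0.0190), a call lost in 3 of the 6 fits that left out a single library. The cuticle sum of 17 genes overlapped between the times.

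The same contrast in conRNAi heads called 141 genes (1.89% of 7444), 62 higher (0.833%) and 79 lower (1.06%) at ZT11. Its libraries held 4616232 to 11545419 reads at ZT11 and 703913 to 7902364 at ZT23, 1 of them under 1000000. Of the 41 genes higher in labelled RNAi heads, 15 were also higher in conRNAi heads, which is 36.6% of the 41 and 24.2% of the 62. Of the 33 lower genes, 21 were also lower in conRNAi heads, 63.6% of the 33 and 26.6% of the 79. No gene was called in opposite directions, and 71 of the 74 had the same sign in both genotypes.

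Calls in 1 genotype alone do not show a difference between genotypes, so the difference itself was tested. No gene passed (0 of 7444, 0.0%) by limma, with 557 at an unadjusted p under 0.05. By edgeR and DESeq2 on recovered reads the counts were also 0, with 287 and 278 at an unadjusted p under 0.05. On simulated data the limma test of this difference recovered 29% of genes that differed by 1 log2 unit and 5% of those that differed by 0.5. Without ZT23 replicate 1 of labelled RNAi heads, limma called 60 genes, 51 with a larger and 9 with a smaller ZT11 minus ZT23 difference in labelled RNAi heads. That fit left only the 2 shallow libraries of 349019 and 562369 reads at ZT23, and the part of depth in these calls was not tested. Without any other single library the count was 0.

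The 6 genes of lowest p for this difference were Tret1-1, Cpr62Bb, spn-F, dob, CG7990 and CG13204, with a limma adjusted p of 0.497 each. Tret1-1, which encodes a trehalose transporter, had 778, 898 and 832 normalised reads at ZT11 and 769, 696 and 795 at ZT23 in labelled RNAi heads. In conRNAi heads it had 509, 449 and 438 at ZT11, against 718, 696 and 671 at ZT23 (log2 difference -0.58, limma adjusted p = 0.0132). The times were separate in conRNAi heads and overlapped in labelled RNAi heads, and the genotypes differed by 0.73 (unadjusted p = 0.00014). Tret1-1 overlaps Roc2 in the annotation, and without stated strand their reads cannot be told apart. Cpr62Bb had 37.2, 35.4 and 35.7 normalised reads at ZT11 in conRNAi heads, against 37.1, 40.3 and 24.3 at ZT23, so the times overlapped there, and the difference between genotypes was 1.70 (unadjusted p = 2.0e-04). For dob, with 368, 297 and 370 normalised reads at ZT11 against 227, 157 and 208 at ZT23 in labelled RNAi heads, conRNAi heads had 153, 137 and 165 at ZT11 and 162, 177 and 159 at ZT23. The difference was 0.95 (unadjusted p = 4.0e-04). The call of dob within labelled RNAi heads was lost in all but 1 of the 6 fits that left out a single library.

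**Figure D5:**
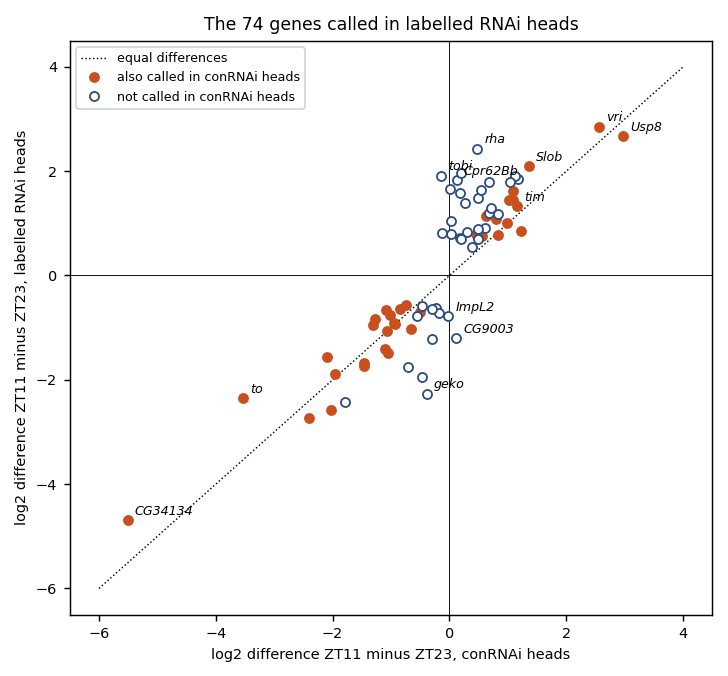
Each point is 1 of the 74 genes called in labelled RNAi heads, with its log2 difference (ZT11 minus ZT23) in conRNAi heads on the horizontal and in labelled RNAi heads on the vertical axis; filled points were also called in conRNAi heads and the dotted line marks equal differences. 71 of the 74 genes have the same sign in both genotypes.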

How the data were processed

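RNA of heads from 2 genotypes was profiled by 3′ RNA-seq at 6 times with 3 replicates each (36 libraries). Per the submitters' processing notes, Bowtie, TopHat and the build dm3 were used; their versions, the counter, the annotation and the strand of counting are unknown from the sources used here. The authors deposited 1 normalised signal value per transcript and library. The steps between low values showed that this signal equals reads over a library-wide factor: dividing by the step gave whole reads for 100% of values in 36 of 36 libraries, with a tolerance of 0.05 reads. The deposited q-values of the authors' rhythm test were only counted.

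The 8443 transcripts were reduced to 7444 genes, keeping the transcript with the highest mean; symbols came from a RefSeq table (Release 6 plus ISO1 MT), 7186 by locus tag, 252 by synonym and 6 as listed. It is of another build and was used for names and neighbours, with no coordinates. A chi-square test on reads found no pair of replicates as alike as counting error alone would make them (ratio to its degrees of freedom 3.66 to 18.1).

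limma-trend 3.58.1 (R 4.3.3) used log2(value + 1) and a factor for time, over the 18 labelled RNAi libraries, the 18 conRNAi libraries, or all 36 for the difference between genotypes, with Benjamini-Hochberg adjustment over all genes and a threshold of 0.05. The 1 added to each value makes the differences of low genes smaller. For CG9667, Orct2 and Ekar the log2 differences were nevertheless larger by limma than by edgeR, so folds of low genes can err either way. edgeR 4.0.16 and DESeq2 1.42.0 on the recovered reads were alternatives, as were other pseudocounts, filters, scalings, sums of transcripts, fits and left-out libraries. On data simulated for labelled RNAi heads the test recovered 41% of genes changed by 1 log2 unit and 6% of those changed by 0.5, against 70% and 15% for conRNAi heads and 29% and 5% for the difference between genotypes. Each amount was given to 100 genes. The test also called 5 unchanged genes for labelled RNAi heads, beside 41 and 6 changed ones. For conRNAi heads it called 4, beside 70 and 15, and for the difference between genotypes 4, beside 29 and 5. The simulation gave each gene the same variation beyond counting error in every library.

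The members and lists were chosen with earlier results of these data known. Genes were named by a rule: the 12 largest increases and decreases among called genes without overlap, the measured core clock genes, cbt, the 2 to 4 members of lowest p per list and the 6 of lowest p for the genotype difference. Other called genes (Culd, CG31300, Ank2, gol, Drip, Inos, Hmu, CG3348, CAH9, Jhbp11, CG43367, l(2)k01209, dlp, CG17108, kst, Ide, CG4716) and further list members were named after their values were seen. Same-numbered ZT11 and ZT23 libraries did not all deviate together: their correlations were -0.04, 0.02 and 0.11 in labelled RNAi heads and 0.079, 0.13 and 0.13 in conRNAi heads. These correlations do not settle whether replicate numbers pair the libraries, and no pairing was used in the main fits.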

Additional observations from a re-analysis of the deposited data

How the results depend on the processing

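The count of 74 genes in labelled RNAi heads was 121 with a replicate block, 49 by edgeR on recovered reads (22 higher, 27 lower), 14 with only ZT11 and ZT23 libraries in the fit, 159 with all 36 libraries in the fit and 6 without libraries under 1000000 reads, which leaves 1 ZT23 library that is assumed to vary like the other groups. Leaving out 1 library gave 25 to 256. The count was 62 to 74 under other pseudocounts, filters, scalings, transcript sums and DESeq2 on recovered reads; the filter at a mean of 75 was chosen after seeing the data. In conRNAi heads 141 genes became 231 with the replicate block and 79 to 114 without 1 library. For the difference between genotypes the count was 0, and 0 to 60 without 1 library. Replicate numbers were not used to pair the libraries: in labelled RNAi heads not every ZT11 library correlated best with the ZT23 library of its own number. In conRNAi heads all 3 did (0.079, 0.13 and 0.13, against -0.15 to 0.037 for other numbers), a hint from the data and not from the design. No direction was reversed. Over all named genes and settings, 3291 results stayed on the same side of the threshold, 389 became weaker and 56 stronger. On simulated labelled RNAi data, differences of 0.5 log2 units were recovered in 6% of genes, and the 349019 reads of 1 ZT23 library limit low genes.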
